A study of Mus musculus with 6 samples.

Results

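The 6 genes examined in mouse kidney were the 3 activating receptors for the Fc part of immunoglobulin G (Fcgr1, Fcgr3 and Fcgr4), the inhibitory receptor Fcgr2b and the signalling adaptors Fcer1g and Tyrobp. They were taken by symbol from a table of 17680 genes, all 6 were found there, and all 6 passed the low-count filter that left 14219 genes. RNA had been sequenced in bulk from kidneys of wild-type C57BL/6 mice aged 6 to 8 weeks, collected 24 h (day 1) after an intraperitoneal injection. The LPS group (3 mice) received lipopolysaccharide, a component of the bacterial outer membrane used to model sepsis with acute kidney injury, and the Control group (3 mice) received PBS, a saline buffer. The mice carried no transgene or deletion per the labels, the LPS dose is not stated there, and kidney damage was checked by blood creatinine and urea nitrogen per the series' design text. Libraries held 29097558 to 33454344 counts.

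Fc receptors bind the constant end of antibodies and let phagocytes and other leukocytes respond to antibody-coated particles and immune complexes. In mice the activating receptors carry no signalling motif of their own and depend on the Fcer1g product, the common Fc receptor gamma chain, whose ITAM (immunoreceptor tyrosine-based activation motif) recruits the kinase Syk. Fcgr2b instead carries an ITIM (immunoreceptor tyrosine-based inhibition motif) that recruits the lipid phosphatase SHIP-1, the product of Inpp5d, so the balance of activating to inhibitory receptors sets the threshold of the response. Tyrobp encodes DAP12, another ITAM adaptor, used by receptors such as those of the Trem family. In kidney these receptors are best known from antibody-mediated glomerulonephritis.

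The promoter windows of the receptor genes and of Fcer1g are shown because the activating receptors and Fcgr2b, which are close relatives, moved in opposite directions. Each window runs from 250 bases before to 50 bases after the RefSeq start site and is written 5′ to 3′ on the gene's own strand (RefSeq, GRCm38.p6). They lie at chr3:96293920-96294219 (minus strand) for Fcgr1, chr1:171059354-171059653 (minus) for the first listed start of Fcgr3, chr1:171018676-171018975 (plus) for Fcgr4, chr1:170976022-170976321 (minus) for Fcgr2b and chr1:171234300-171234599 (minus) for Fcer1g. Windows were found for 5 of the 6 genes, and none is shown for Tyrobp. Capitals mark matches, on either strand, to letters of the PU.1 core (GAGGAA), of the GAS element of STAT factors (TTCNNNGAA), of the interferon-stimulated response element half-repeat and of a C/EBP site (TTGCNNAA).
Fcgr1: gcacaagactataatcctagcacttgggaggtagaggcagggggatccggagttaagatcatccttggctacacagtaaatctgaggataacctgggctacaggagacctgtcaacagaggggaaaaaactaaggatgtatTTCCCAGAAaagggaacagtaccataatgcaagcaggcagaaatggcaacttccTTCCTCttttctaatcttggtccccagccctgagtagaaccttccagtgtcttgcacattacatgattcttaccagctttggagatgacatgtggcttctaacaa
Fcgr3: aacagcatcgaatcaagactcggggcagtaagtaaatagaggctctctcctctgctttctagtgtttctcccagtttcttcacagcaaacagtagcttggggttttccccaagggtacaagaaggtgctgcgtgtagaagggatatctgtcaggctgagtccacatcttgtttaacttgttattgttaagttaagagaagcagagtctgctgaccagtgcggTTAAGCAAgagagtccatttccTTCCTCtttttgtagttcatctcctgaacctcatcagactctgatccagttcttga
Fcgr4: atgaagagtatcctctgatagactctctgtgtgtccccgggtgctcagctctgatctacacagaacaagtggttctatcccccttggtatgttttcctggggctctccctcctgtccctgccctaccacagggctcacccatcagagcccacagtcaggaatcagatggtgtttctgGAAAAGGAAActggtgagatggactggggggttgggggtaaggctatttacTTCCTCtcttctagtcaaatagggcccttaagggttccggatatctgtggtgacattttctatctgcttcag
Fcgr2b: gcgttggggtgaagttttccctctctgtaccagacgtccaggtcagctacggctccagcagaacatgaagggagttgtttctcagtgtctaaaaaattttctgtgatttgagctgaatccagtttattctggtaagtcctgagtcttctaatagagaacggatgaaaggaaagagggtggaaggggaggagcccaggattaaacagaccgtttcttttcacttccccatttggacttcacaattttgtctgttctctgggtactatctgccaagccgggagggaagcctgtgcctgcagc
Fcer1g: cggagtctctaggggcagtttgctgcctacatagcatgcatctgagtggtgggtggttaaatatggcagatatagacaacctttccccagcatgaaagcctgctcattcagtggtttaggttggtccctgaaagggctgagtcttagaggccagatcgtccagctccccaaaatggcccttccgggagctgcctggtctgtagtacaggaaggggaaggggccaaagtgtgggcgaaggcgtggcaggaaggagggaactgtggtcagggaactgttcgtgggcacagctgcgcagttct
All 3 activating receptor windows held the PU.1 core letters, read as TTCCTC on the strand shown, and 28.3% of 32851 RefSeq promoter windows of the same length held them on either strand. The match began at base -55 relative to the start site in Fcgr1, -6 in Fcgr3 and -22 in Fcgr4. Fcgr1 also held the GAS letters, found in 8.30% of windows, Fcgr4 the interferon half-repeat, found in 3.44%, and Fcgr3 the C/EBP letters, found in 10.8%, and none of the matches within a window overlapped another. No match to these letters was found in the windows of Fcgr2b and Fcer1g. A match describes letters only, and binding was not measured.

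In LPS kidneys the 3 activating receptors and both adaptors rose and Fcgr2b fell. The increases ranged from 1.59-fold for Tyrobp to 4.0-fold for Fcgr4, while Fcgr2b was at 0.780 of its Control level. With edgeR's quasi-likelihood test and Benjamini-Hochberg adjustment over all 14219 genes, 5 of the 6 genes were higher and 1 was lower. Of all genes tested, 25.7% were higher, 24.8% lower, 50.5% either, and 8.24% at least 2-fold higher, the size reached by 4 of the 6. Every LPS library stood above every Control library for 5 of the 6 genes, as it did for 30.5% of genes tested, and below them for Fcgr2b, as for 29.8%, so that 60.2% of all genes tested had groups that did not overlap. In RNA from whole tissue, more cells of a type and more RNA per cell cannot be told apart. Nothing in the labels says how the libraries were batched.

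**Figure D1:**
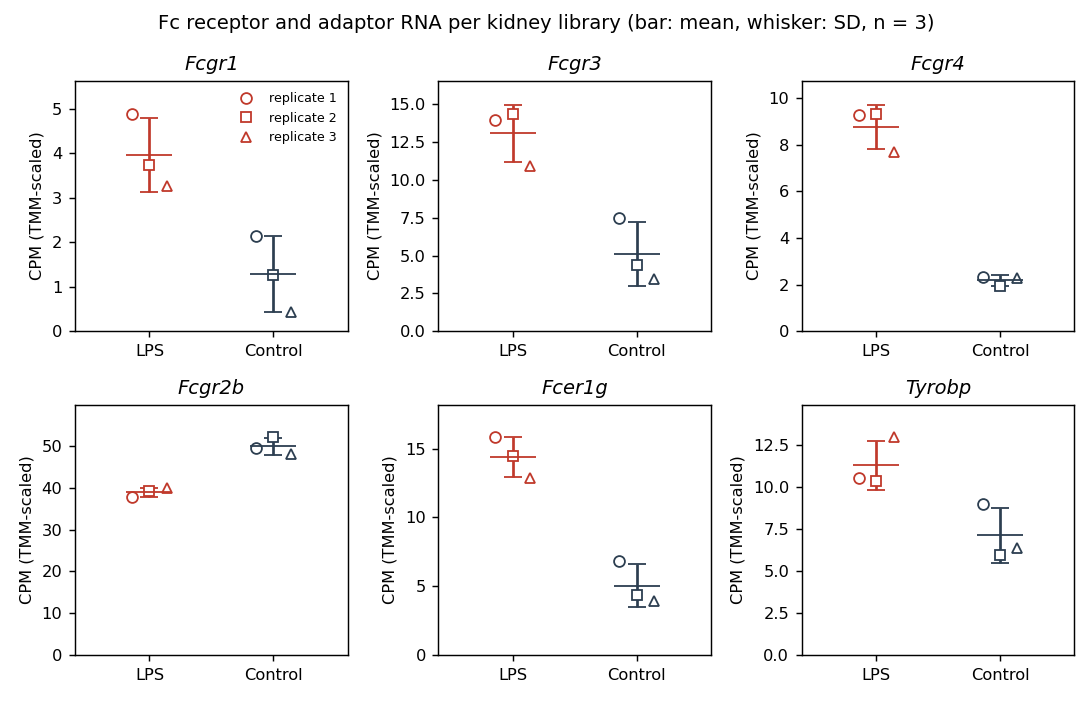
CPM (counts scaled to library size with edgeR's TMM factors, y axis from 0) of the 6 genes in each kidney library, with the mean and SD of 3 libraries per group; symbols mark the replicate number. LPS libraries stand above Control libraries in 5 panels and below them for Fcgr2b (37.8 to 39.9 against 48.1 to 52.1 CPM), and Control replicate 1 is the highest Control library in each panel but that of Fcgr2b, by a small margin for Fcgr4.

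Fcgr4, the mouse receptor for the IgG2a and IgG2b subclasses, showed the largest change of the 6. Its level was 9.28, 9.33 and 7.68 CPM in LPS libraries, against 2.34, 1.92 and 2.30 CPM in Control libraries. The lowest LPS library stood far above the highest Control library, and the replicates of each group lay close together. The log2 fold change was 2.0 ± 0.19 (SE; adjusted p = 3.12e-05, edgeR).

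Fcgr1 encodes the high-affinity IgG receptor CD64 and was the scarcest of the 6 genes. It had 159, 124 and 101 counts in LPS libraries and 64, 39 and 13 counts in Control libraries, or 4.89, 3.73 and 3.27 CPM against 2.14, 1.27 and 0.428 CPM. The groups did not overlap, but the Control libraries differed among themselves, relative to their mean, more than for any other of the 6 genes. The log2 fold change was 1.63 ± 0.47 (adjusted p = 0.0171, edgeR), and the gene did not pass without Control replicate 2 (1.62, adjusted p = 0.0573). Without Control replicate 1 the value was 2.22 (adjusted p = 0.00481).

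Fcgr3 encodes the low-affinity activating receptor CD16. Levels of 13.9, 14.4 and 10.9 CPM were measured in LPS libraries, against 7.49, 4.40 and 3.45 CPM in Control libraries. The groups did not overlap, although Control replicate 1 came nearest to the LPS range. The log2 fold change was 1.36 ± 0.26 (adjusted p = 0.00247, edgeR).

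Fcgr2b, the inhibitory receptor, moved the other way and by a smaller amount. LPS libraries held 37.8, 39.1 and 39.9 CPM and Control libraries 49.6, 52.1 and 48.1 CPM. The 2 groups did not overlap and the spread within each was small, with SDs of 1.09 CPM in LPS and 1.98 CPM in Control libraries. Its log2 fold change was -0.36 ± 0.07 (adjusted p = 0.00218, edgeR), and it stayed between -0.38 and -0.33 with each library left out in turn.

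Fcer1g, the gamma chain adaptor shared by the activating receptors, rose by an amount between those of Fcgr3 and Fcgr1. It was measured at 15.8, 14.4 and 12.9 CPM in LPS libraries and at 6.82, 4.33 and 3.91 CPM in Control libraries. Even the lowest LPS library was well above Control replicate 1, the highest Control library. The log2 fold change was 1.52 ± 0.21 (adjusted p = 0.00036, edgeR).

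Tyrobp, the DAP12 adaptor, had the smallest increase and the least secure call. Its levels were 10.5, 10.3 and 12.9 CPM in LPS libraries, against 8.99, 5.96 and 6.35 CPM in Control libraries. Control replicate 1 lay just below the LPS range. The log2 fold change was 0.67 ± 0.19 (adjusted p = 0.0153, edgeR). Tyrobp did not pass without LPS replicate 3 (0.56, adjusted p = 0.0551), Control replicate 2 (0.55, adjusted p = 0.0611) or Control replicate 3 (0.59, adjusted p = 0.0546), and without Control replicate 1 its value was 0.87 (adjusted p = 0.00342).

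**Figure D2:**
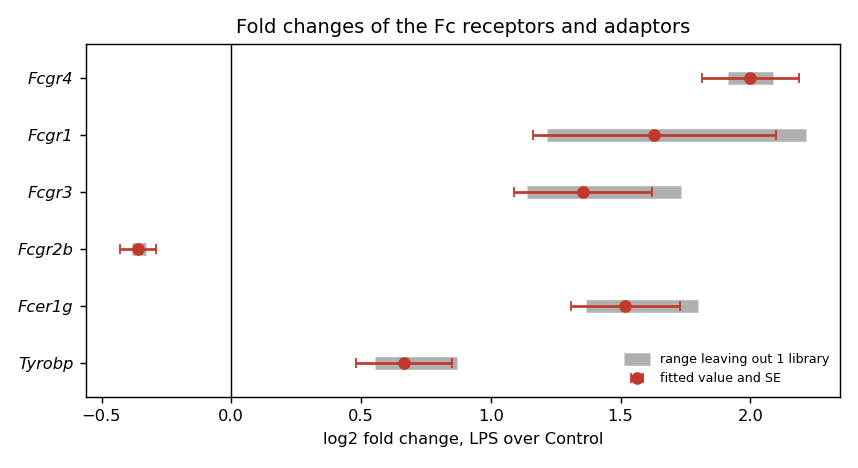
Log2 fold change of LPS over Control (x axis) for each gene, with points and whiskers for the fitted value and its SE and grey bars for the range when 1 of the 6 libraries was left out. Fcgr2b stands alone below 0 at -0.36, and the grey bar of Fcgr1 is the widest, from 1.22 to 2.22.

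LPS replicate 2 and Control replicate 1 stood apart in ways that bear on these values. LPS replicate 2 held 3.65% of its counts in 8 seminal vesicle genes, against 0.00328% to 0.00456% in the other libraries. Without it the log2 fold changes were 1.68 for Fcgr1, 1.29 for Fcgr3, 1.96 for Fcgr4, -0.36 for Fcgr2b, 1.52 for Fcer1g and 0.73 for Tyrobp, and all 6 still passed, with adjusted p-values up to 0.0274 (edgeR). Control replicate 1 held more leukocyte RNA than the other Control libraries. This contrast within the Control group was picked with its values known. Its level of Ptprc, the pan-leukocyte gene of CD45, was 2.10 times the mean of Control replicates 2 and 3, and that of the macrophage gene Adgre1 was 1.89 times. The same ratio was 2.52 for Fcgr1, 1.91 for Fcgr3, 1.65 for Fcer1g and 1.46 for Tyrobp, against 1.11 for Fcgr4 and 0.990 for Fcgr2b. The B cell gene Cd79a stood at 7.21 times that mean.

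Levels were compared between genes per length, with the deposited FPKM values (fragment counts scaled to gene length and library depth). In LPS kidneys the order was Fcgr2b at 25.1 ± 0.407, Fcer1g at 21.8 ± 2.47, Tyrobp at 19.5 ± 2.33, Fcgr4 at 6.99 ± 0.807, Fcgr3 at 4.74 ± 0.719 and Fcgr1 at 1.53 ± 0.339 FPKM (mean ± SD, n = 3). In Control kidneys it was Fcgr2b at 32.4 ± 1.27, Tyrobp at 12.4 ± 3.18, Fcer1g at 7.69 ± 2.59, Fcgr3 at 1.87 ± 0.817, Fcgr4 at 1.76 ± 0.212 and Fcgr1 at 0.499 ± 0.343 FPKM. Fcer1g and Tyrobp overlapped in both groups, and Fcgr3 and Fcgr4 overlapped in Control kidneys. This order, and the sums of FPKM below, depend on the gene lengths behind the deposited values. Those values imply 2751 bases for Fcgr3, 1250 for Fcgr4 and 1547 for Fcgr2b. In mean CPM, which is not scaled to length, Fcgr3 stood above Fcgr4 in LPS kidneys (13.1 against 8.76). Fcgr2b was the highest of the 6 genes in every library, closely followed in LPS replicate 1 by Fcer1g at 24.3 FPKM.

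The balance of activating to inhibitory receptor RNA in whole kidney differed between the groups. Whether the activating receptors and Fcgr2b were expressed in the same cells was not tested, so these ratios do not give the balance on any cell type. Fcgr2b made up 62.9%, 64.2% and 69.4% of the summed FPKM of the 4 IgG receptors in LPS libraries, against 85.5%, 90.3% and 90.5% in Control libraries. The sum itself was 38.3 ± 1.45 FPKM in LPS and 36.5 ± 2.20 FPKM in Control libraries (SD, n = 3 each), and the groups overlapped. The ratio of the 3 summed activating receptors to Fcgr2b was 0.589, 0.558 and 0.441 in LPS libraries and 0.169, 0.108 and 0.105 in Control libraries. The groups did not overlap, which follows from the values of the single genes. Fcgr2b exceeded the sum of the activating receptors in every library.

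Each activating receptor was also set against Fcgr2b alone, a ratio within a library that does not depend on library scaling. The log2 ratio of Fcgr4 to Fcgr2b was -1.85 ± 0.19 in LPS and -4.21 ± 0.21 in Control libraries (SD, n = 3 each), a difference of 2.36. That of Fcgr1 was -4.06 ± 0.34 in LPS and -6.31 ± 1.16 in Control libraries, a difference of 2.25. That of Fcgr3 was -2.41 ± 0.25 in LPS and -4.20 ± 0.56 in Control libraries, a difference of 1.78. For the adaptors, the log2 ratio of Fcer1g to Tyrobp was 0.16 ± 0.32 in LPS and -0.71 ± 0.16 in Control libraries, a difference of 0.87, and Fcer1g was the higher of the pair in 2 of 3 LPS libraries and in 0 of 3 Control libraries. None of the 4 ratios overlapped between the groups. Each gave p = 0.1 in a two-sided exact permutation test, also after Benjamini-Hochberg adjustment over the 4. The smallest p that 3 against 3 libraries can give is 0.1, so this design cannot reach 0.05. For the 3 receptor ratios this outcome was fixed by the single genes. Every LPS library held more of each activating receptor and less Fcgr2b than every Control library. The test of these 3 ratios therefore adds nothing to the fold changes.

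**Figure D3:**
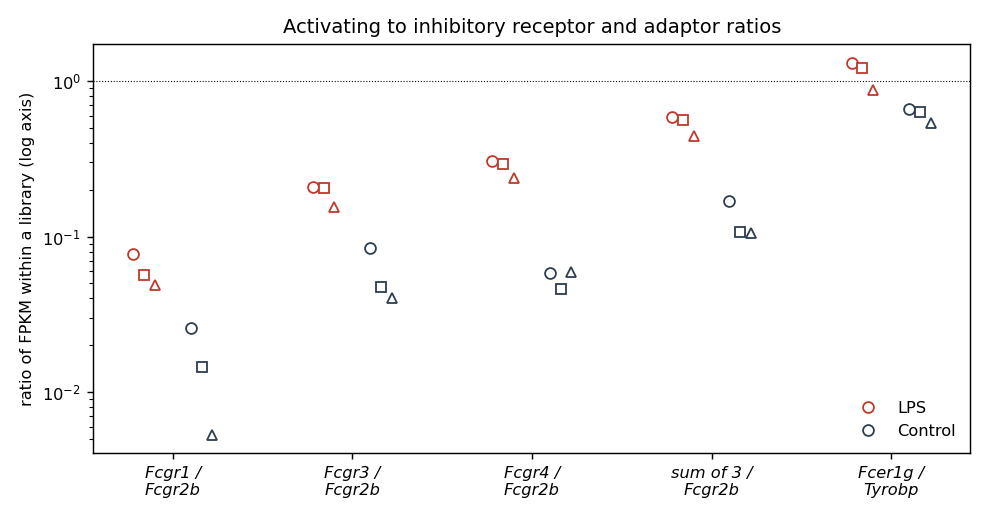
Ratio of deposited FPKM within each library (log axis) for the activating receptors over Fcgr2b, for the sum of all 3 over Fcgr2b and for Fcer1g over Tyrobp; circles, squares and triangles are replicates 1, 2 and 3, with LPS left of Control. All 3 LPS libraries lie above all 3 Control libraries in each column, for example 0.441 to 0.589 against 0.105 to 0.169 for the sum. In the receptor columns this follows from the values of the single genes.

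The same genes were set against Ptprc, which did not pass the test between the groups (10.1 ± 1.66 CPM in LPS and 10.4 ± 4.85 CPM in Control libraries; log2 fold change -0.04, adjusted p = 0.928, edgeR). Ptprc was highest in Control replicate 1, and without that library its log2 fold change was 0.41 (adjusted p = 0.0910, edgeR). The value near 0 therefore depended on that library. Relative to Ptprc the log2 FPKM ratio was higher in LPS libraries by 1.96 for Fcgr4, 1.85 for Fcgr1 and 1.51 for Fcer1g. It was higher by 1.38 for Fcgr3 and 0.64 for Tyrobp, and these 5 ratios did not overlap between the groups. The share of all genes without overlap on this ratio was not computed. For Fcgr2b the difference was -0.40, at 3.88 ± 0.28 in LPS and 4.28 ± 0.63 in Control libraries, and the groups overlapped. The exact permutation p was 0.1 for the 5 ratios and 0.4 for Fcgr2b, or 0.12 and 0.4 after adjustment over the 6. The integrin gene Itgb2 itself rose by 1.03 ± 0.25 (adjusted p = 0.00776, edgeR). With Itgb2 in place of Ptprc the differences were 0.94 for Fcgr4, 0.83 for Fcgr1, 0.49 for Fcer1g, 0.36 for Fcgr3 and -1.42 for Fcgr2b, and that for Tyrobp turned to -0.38. The FPKM of Fcgr2b was 12.5 to 18.3 times that of Ptprc in LPS libraries and 11.8 to 26.3 times in Control libraries.

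Markers of the leukocytes that carry Fc receptors moved in different directions. Of 9 tested neutrophil markers 9 rose (median log2 fold change 5.04), with a summed level of 79.9 to 123 CPM in LPS and 3.16 to 4.21 CPM in Control libraries, and Ly6g, the other of that list, was too low to test. Among 7 monocyte markers 5 rose and 1, the chemokine receptor Ccr2, fell (median 2.43), with sums of 550 to 637 CPM in LPS and 32.8 to 43.6 CPM in Control libraries, most of it from the LPS co-receptor gene Cd14 and Plac8 in LPS libraries. The 8 resident macrophage markers had 2 rises, of the complement genes C1qa and C1qb, and 3 falls, of the receptors Csf1r, Cx3cr1 and Mrc1 (median 0.05), at 138 to 170 CPM in LPS and 145 to 181 CPM in Control libraries. Of 6 dendritic cell markers 4 fell and the other 2 did not pass, with sums of 6.74 to 8.45 CPM in LPS and 12.2 to 21.0 CPM in Control libraries, and Cd209a was at 0 counts in each LPS library. Among 7 pan-leukocyte markers 0 passed in edgeR and in DESeq2, 1 was higher at an unadjusted p under 0.05 in edgeR (Arhgdib, named after its values were seen, which also passed in limma-voom) and 0 were lower at that p, with sums of 115 to 188 CPM in LPS and 94.0 to 157 CPM in Control libraries, and Cd52 alone stood at 51.3 CPM in LPS replicate 2 against at most 12.7 CPM elsewhere.

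B cell and NK cell markers were low in every library. Only 1 of 6 B cell markers was tested, Cd79b, which fell (adjusted p = 0.0436, edgeR). It stood at 1.04, 0.572 and 0.842 CPM in LPS libraries. Control libraries held 3.71, 1.20 and 1.38 CPM, so that Control replicate 1 was far the highest. The B cell list summed to 0.752 to 1.23 CPM in LPS and 1.94 to 12.3 CPM in Control libraries. Of 6 NK cell markers 3 were tested and 1, the granzyme Gzma, rose, at sums of 1.94 to 3.75 CPM in LPS and 0.724 to 1.24 CPM in Control libraries. The mast cell proteases were too low to test, with at most 8 counts in any library, and Kit, the tested gene of that list, fell. Kit was far higher than these proteases, at 11.5 to 24.3 CPM, and which cells held its RNA was not tested. Among 7 endothelial markers 3 fell and 4 did not pass, at 282 to 348 CPM in LPS and 403 to 524 CPM in Control libraries. Of 9 tubule and glomerulus genes, all well detected in every library as the kidney label requires, 7 fell and 2 did not pass, for a sum of 6142 to 6618 CPM in LPS and 13897 to 15221 CPM in Control libraries. The part of any of these cells in the changes of the 6 genes was not tested.

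**Figure D4:**
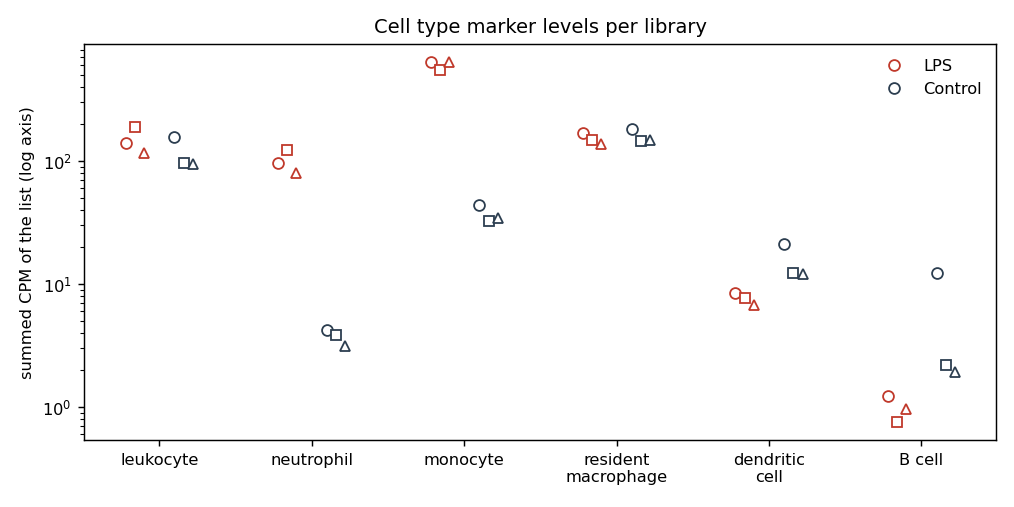
Summed CPM of each leukocyte marker list (log axis) per library; circles, squares and triangles are replicates 1, 2 and 3, with LPS left of Control. Neutrophil and monocyte lists are separated with LPS above Control (79.9 to 123 against 3.16 to 4.21 CPM for neutrophil markers). Dendritic and B cell lists are separated with LPS below Control (6.74 to 8.45 against 12.2 to 21.0 CPM for dendritic cell markers). Leukocyte and resident macrophage lists overlap, and the B cell list is highest in Control replicate 1 at 12.3 CPM.

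Other Fc-binding receptors, listed with their chains and relatives, moved in both directions. Of 15 listed genes 9 were tested, 3 rose and 4 fell, with a median log2 fold change of -0.33, against 0.01 over all genes. Among all genes tested 25.7% were higher and 24.8% lower, the shares beside which every list count here is to be read. The count of falls was 2 without Control replicate 2, without Control replicate 3 or with a mean CPM of at least 1, and 3 without any other single library. B2m, the light chain of the neonatal Fc receptor and of MHC class I, rose by 2.54 ± 0.11 (adjusted p = 4.47e-07), and Fcgrt, the heavy chain of the neonatal receptor that recycles IgG and albumin, fell by 0.33 ± 0.10 (adjusted p = 0.0193). Fcgrt stood at 196, 172 and 202 CPM in LPS libraries, against 216, 259 and 242 CPM in Control libraries, and it did not pass without LPS replicate 2, Control replicate 2 or Control replicate 3 (adjusted p = 0.0694, 0.0850 and 0.0570). Fcamr, a receptor for IgA and IgM, fell by 3.62 ± 0.35. Pigr, which carries IgA and IgM across epithelia, rose by 1.48 ± 0.24 and was chosen after its values were seen. Fcrlb, an intracellular Fc receptor-like protein, had 153 counts summed over the LPS kidneys, against 2 over the Control kidneys, a ratio of 71.6 (exact 95% binomial interval 19.5 to 596, counting error only). Trim21, the cytosolic antibody receptor, did not pass, at 0.19 ± 0.15 (adjusted p = 0.343).

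Kinases and scaffolds that act after ITAM phosphorylation rose in part. Of 23 tested genes 10 rose and 1 fell, with a median of 0.46. The Src-family kinase Fgr rose by 3.39 ± 0.20, with 10.5, 9.42 and 9.82 CPM in LPS libraries and 0.869, 1.14 and 0.822 CPM in Control libraries. Pik3r5, a regulatory subunit of phosphoinositide 3-kinase gamma, rose by 2.75 ± 0.31. Syk itself did not pass (0.68 ± 0.42, adjusted p = 0.209), at 7.96, 5.02 and 4.34 CPM in LPS libraries and 6.29, 2.02 and 2.50 CPM in Control libraries. The groups overlapped through Control replicate 1, and without that library the Syk value was 1.35 (adjusted p = 0.00945).

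Some genes listed as negative regulators of ITAM signalling also rose. Of 11 tested genes 4 rose and 7 did not pass, with a median of 0.28. Among all genes tested 25.7% were higher, and the list count was 3 to 5 with a library left out. Inpp5d, the SHIP-1 phosphatase that acts behind Fcgr2b, did not pass (0.18 ± 0.25, adjusted p = 0.576) and turned to -0.0069 without Control replicate 2. Ptpn6, the SHP-1 phosphatase, did not pass either (0.08 ± 0.08, adjusted p = 0.423). The adaptor Dok1 rose by 0.73 ± 0.19, the phosphatase Ptpn11 by 0.30 ± 0.08 and the ubiquitin ligase Cblb by 0.36 ± 0.10, though Cblb did not pass without Control replicate 2 (adjusted p = 0.0517).

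Receptors that signal through Fcer1g or Tyrobp included several large increases. Of 22 listed genes 15 were tested, 8 rose and 2 fell, with a median of 1.87, and the list counts fell to 2 and 0 when genes under a mean CPM of 1 were left out. Clec4e, the Fcer1g-coupled lectin Mincle, rose by 5.78 ± 0.42 and reached 8.54, 5.72 and 6.28 CPM in LPS libraries, against at most 0.228 CPM in Control libraries. Trem1, a Tyrobp-coupled receptor of neutrophils and monocytes, rose by 5.29 ± 0.45, and the lectin Clec4d by 3.88 ± 0.49. Both sizes rest on few Control counts. Summed over the kidneys of a group, Trem1 had 180 counts in LPS and 4 in Control, and Clec4d 210 and 13. The 2 genes that fell, named after their values were seen, were Clec4b1 (-3.75 ± 0.59) and Klrk1 (-1.80 ± 0.55). Clec4b1 had 4 counts summed in LPS and 55 in Control, and Klrk1 16 and 53. Trem2, a Tyrobp-coupled receptor of macrophages, did not pass (0.41 ± 0.56, adjusted p = 0.568) and stood at most at 0.645 CPM in any library.

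Many of the inhibitory ITIM receptors other than Fcgr2b rose. Of 16 tested genes 10 rose and 6 did not pass, with a median of 1.26. The count of rises was 8 without Control replicate 2 or 3, and 1 gene of the list was lower in 4 alternatives, DESeq2 among them. Pirb, a receptor of myeloid cells for MHC class I, rose by 2.65 ± 0.24, Pilra by 3.28 ± 0.32 and Cd300lf by 4.59 ± 0.46. Cd300lf had 215 counts summed over the LPS kidneys and 8 over the Control kidneys. Pirb levels were 13.1, 12.2 and 10.8 CPM in LPS libraries and 2.01, 1.24 and 2.47 CPM in Control libraries, with no overlap. Sirpa, the receptor for the CD47 signal, rose by 0.31 ± 0.09 (adjusted p = 0.0169) but did not pass without Control replicate 1 or 3 (adjusted p = 0.0597 and 0.0664).

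**Figure D5:**
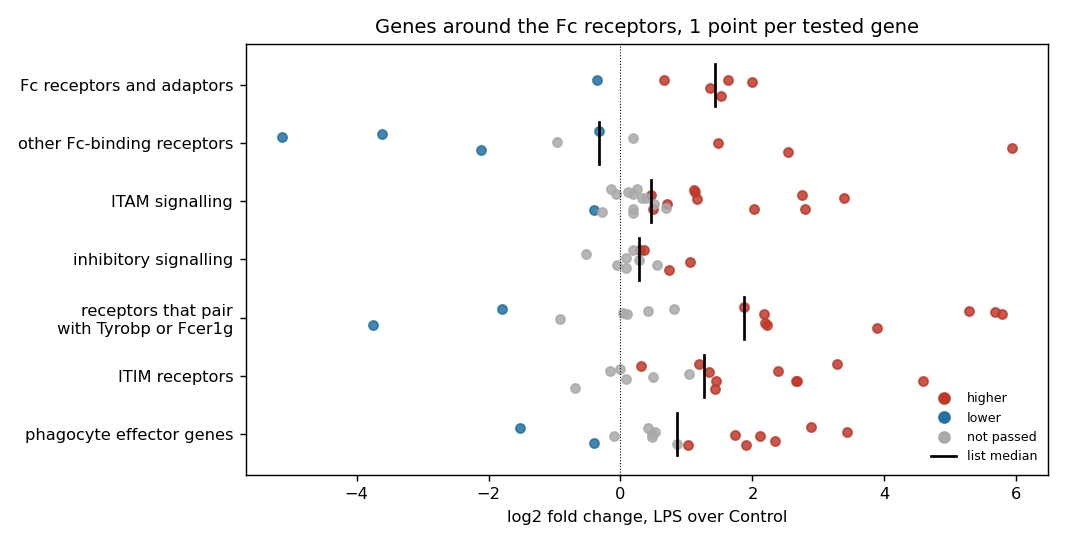
Log2 fold change of LPS over Control (x axis) for each tested gene of the lists around the Fc receptors; red points were higher, blue points lower and grey points did not pass, and black bars are list medians. Medians lie between -0.33 for other Fc-binding receptors and 1.87 for receptors that pair with the adaptors, and Fcgr2b is the blue point in the top line.

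Genes of the phagocytic response and the antibody ligands completed the pathway. Of 15 phagocyte effector genes 7 rose and 2 fell (median 0.85), among them the actin regulator Arpc1b at 1.91 ± 0.11, the lysosomal glycoprotein Cd68 at 2.88 ± 0.18 and the complement receptor chain Itgam at 3.43 ± 0.32, and the count of rises was 11 without Control replicate 1. On the ligand side, Jchain, the joining chain of polymeric antibodies, fell by 1.87 ± 0.36. It stood at 11.5 CPM in Control replicate 1, against 4.62 and 5.16 CPM in Control replicates 2 and 3. Its log2 fold change ranged from -2.10 to -1.33 with a library left out, and it still passed. The 11 listed immunoglobulin constant region genes were not found by symbol among the 17680 genes with counts, so they could not be analysed.

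The genes most like each member were found by the root mean square difference of log2 CPM over the 6 libraries, after centring each gene on its Control mean, among 12829 genes. For Fcgr4 they were Lbp (0.072), Slc39a14 (0.12) and Slc25a25 (0.12), and for Fcgr2b they were Cdc14a (0.023), Dgkz (0.026) and Letm1 (0.027). Nearest to Fcgr3 stood Cyyr1 (0.065), Trim30d (0.11) and Socs1 (0.13), and nearest to Fcer1g were Pxdc1 (0.089), Parp14 (0.089) and Nfil3 (0.11). Tyrobp lay closest to Wsb1 (0.072), Cd99 (0.078) and Hsp90b1 (0.078). Fcgr1 had no such near match, with Ccr7 (0.28), Lrrc70 (0.28) and Stx11 (0.31).

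The IgG receptor genes are close relatives, which bears on how reads can be assigned. In GENCODE M21 transcripts, 166 of 1733 windows of 50 bases in Fcgr3 (9.58%) were also found in Fcgr2b. Of 5685 windows in Fcgr2b, 395 (6.95%) were found in another gene, most often in Fcgr3, Gm38204 or Cplx2, and no window of Fcgr1, Fcgr4, Fcer1g or Tyrobp was found in another gene. The sources used here do not say how the authors' counting treated such reads, and the values of Fcgr2b and Fcgr3 carry that uncertainty.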

How the data were processed

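Bulk RNA-seq of 6 mouse kidneys was used (3 LPS, 3 Control). Per the labels' protocols, TRIzol served for RNA extraction and the VAHTS Universal V6 kit for library preparation. The submitters' processing notes name HISAT2, HTSeq, SAMtools, DESeq2 and R 3.2.0. Not given in the sources used here: the genome build, the annotation, the strand setting and the treatment of reads shared by genes. The deposited counts are whole numbers per gene, and the deposited FPKM values are scaled by the authors to gene length and depth.

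The test of LPS against Control used the quasi-likelihood method of edgeR 4.0.16 under R 4.3.3 (TMM factors, filterByExpr with a minimum count of 10, two-sided), with Benjamini-Hochberg adjustment over 14219 genes and a threshold of 0.05. Each SE is the log2 fold change divided by the root of its F statistic. CPM values are TMM-scaled. FPKM served to compare genes, and ratios were tested by exact permutation over libraries. DESeq2 1.42.0 and limma 3.58.1, other scalings, filters and pseudocounts of 1 and 0.1 FPKM, a replicate block and leaving out each library were alternatives. Replicates are separate mice per the series' design text, and every pair within a group differed by more than sampling noise (chi-square per degree of freedom of at least 11.4).

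Counts were simulated with 200 genes changed, and 13922 genes passed the low-count filter. The test gave back 41.8% of changes of 1.5-fold, 71.2% of 2-fold and 95.3% of 4-fold, and 15 of 151 calls were false. In the kidney data 50.5% of genes were called, a far larger share than was changed in the simulation. The adjusted threshold depends on that share, so these figures do not give the power of the main test. The 6 genes and the lists were chosen with earlier results of these data known. Named genes were the 6, the 3 with the smallest p in each pathway list, genes set by name (Syk, Inpp5d, Ptpn6, Fcgrt, B2m, Trim21, Trem2, Sirpa and Ptprc), less any not reported here, and the 3 nearest to each of the 6. Promoters are from RefSeq (GRCm38.p6).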

Additional observations from a re-analysis of the deposited data

How the results depend on the processing

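Fcgr3, Fcgr4, Fcgr2b and Fcer1g kept direction and call in all 16 alternatives. Leaving out 1 library gave log2 fold changes of 1.22 to 2.22 for Fcgr1 and 0.55 to 0.87 for Tyrobp, and between 3 and 5 of the 6 genes were then higher. On log2(FPKM + 1) the value of Fcgr1 was 0.77, since a pseudocount shrinks low genes. Over all pathway lists, 10 genes were lower, against 6 with a mean CPM of at least 1 and 6 to 10 with a library left out. With the mean CPM filter, fewer genes were tested, and the receptors that pair with the adaptors had 2 higher and 0 lower, against 8 and 2. With a library left out, the count of lower genes was 0 to 1 for ITAM signalling, against 1, and 1 to 2 for both the paired receptors and the phagocyte effectors, against 2 each. The log2 fold change of Ptprc, near 0, turned to 0.052 with limma-voom, 0.0024 on log2(FPKM + 1), 0.028 on log2(FPKM + 0.1) and 0.035 with the replicate block, and ranged from -0.22 to 0.41 with a library left out. Inpp5d ranged from -0.0069 to 0.48 and Trem2 from -0.036 to 0.79 in those fits. With Itgb2, which rose, in place of Ptprc, all 6 ratios were lower and that for Tyrobp turned to -0.38. The depth limits Fcgr1 most, with 13 counts in 1 Control library.

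The replicate numbers did not pair the libraries: deviations of same-numbered libraries correlated at 0.048, -0.053 and -0.002, and 2 of 3 LPS libraries correlated best with another number. With the replicate number as a block, 3414 genes were higher and 3331 lower, against 3658 and 3527, the 6 genes kept their calls, and Syk passed (0.80, adjusted p = 0.0251).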

Other observations

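Genes beside the 6 on the chromosome (RefSeq order, GRCm38.p6) did not all move with them. Fcgr2b, Fcgr4 and Fcgr3 are adjacent in that order on chromosome 1, and their log2 fold changes were -0.36, 2.0 and 1.36. Cfap126, next to Fcgr3, fell by 1.11 ± 0.26. Apoa2, next to Fcer1g, fell by 0.69 ± 0.19. Hcst, which encodes the adaptor DAP10 and lies beside Tyrobp on chromosome 7, did not pass (0.64 ± 0.72, adjusted p = 0.483, edgeR). These neighbours were chosen by position.

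Among Fc receptor relatives, and chosen after its values were seen, the Fc receptor-like gene Fcrls had 2 counts in LPS libraries and 78 in Control libraries, a ratio of 0.0240 (exact 95% binomial interval 0.00285 to 0.0896, counting error only).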
